A study of Mus musculus with 9 samples.

Results

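The 6 genes of the CCAAT/enhancer-binding protein (C/EBP) family, Cebpa, Cebpb, Cebpd, Cebpe, Cebpg and Cebpz, were followed in leukemic and pre-leukemic cell clones of a murine acute myeloid leukemia model driven by Hoxa9 and Meis1. The members were chosen by name, all 6 were found among the 55401 genes of the tables, and all 6 passed the limit on low values in each of the 3 comparisons. RNA-Seq covered 9 libraries of bulk splenocytes sorted by fluorescent color code as CD45.1+, EGFRt-bright, cKit+ and CD11b-dim or negative. In all 9, lineage-negative bone marrow cells of C57BL/6-Ly5.1 mice had been transduced with a gammaretroviral Meis1-2A-Hoxa9 vector, and a fluorescent barcoding vector that also carries EGFRt had been added. Clones were then pooled and transplanted into lethally irradiated C57BL/6J mice.

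The pre-leukemic group comprised 3 barcoded clones (43BC-D, 33BC-D as well as 38BC-D) of mouse #15, taken before the leukemic endpoint. In the de novo expanded group these clones came from leukemic mice (#13, #14 and #17) in which they had grown out. The stably expanded group was clone 34BC-D alone, isolated from the leukemic mice #13, #14 and #17. All pre-leukemic libraries thus share a mouse and all stably expanded libraries share a clone, so that mouse, clone and stage cannot be told apart between stably expanded and pre-leukemic cells. Pre-leukemic and de novo expanded cells are of the same clones and differ in mouse and stage, which cannot be told apart there, and both leukemic groups come from the same mice and differ in clone. The labels do not tie a library to a clone or mouse within its group, and libraries were numbered 1 to 3 without such meaning. In bulk RNA, fewer cells that express a gene and less RNA per cell cannot be told apart.

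C/EBP proteins bind DNA as dimers through a basic leucine zipper (bZIP). C/EBPα commits progenitors to the granulocyte and monocyte lineages and is a common target of mutation in acute myeloid leukemia, C/EBPβ takes over in emergency granulopoiesis, C/EBPδ responds to inflammatory signals, and C/EBPε drives the late steps in which secondary granules form. C/EBPγ lacks a transactivation domain and pairs with C/EBPs and ATF4. Cebpz shares the name but encodes a protein of the CBF/NOC family that works in ribosome maturation and has no bZIP domain.

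Libraries held between 10379739 and 15551196 reads on genes. At least 1 read was found for 27896 to 30548 genes in the pre-leukemic, 23537 to 27989 in the de novo expanded and 21618 to 27067 in the stably expanded libraries, so that the number of genes detected moved with the groups, and its part in the results was not tested. Ptprc, which encodes CD45, stood between 310 and 385 CPM (reads per 1000000 reads on genes) and Kit between 142 and 287 CPM in all 9, both being genes of the sort. Among the marker lists, the 7 T and NK cell genes summed to at most 3.22 CPM, the 5 platelet genes to at most 3.04 CPM, with Ppbp and Gp1bb at 0 reads throughout, the 7 erythroid genes to at most 35.0 CPM, and the 6 genes of mast cells, basophils and eosinophils to between 7.43 and 20.6 CPM. De novo expanded library 3 stood apart from libraries 1 and 2 of its group in the granulocyte genes below. Values without it are given beside the results that it moves most. It was singled out by these same values, so a call made without it describes the remaining libraries and is no independent test. Each library of this group is of a different clone. Leaving out library 3 thus removes a clone, which the pre-leukemic group still holds. Without it limma called 214 genes over pre-leukemic cells and 508 between the leukemic groups. Gpx3, the single gene called between the leukemic groups with no library left out, had 5.36 normalized counts in de novo expanded library 3. The stably expanded libraries had 274 to 548, so that in this gene library 3 was like the other de novo expanded libraries, at 3.37 and 2.59.

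Cebpe, on GRCm38 chr14:54710360-54712174 (minus strand), was the member that moved. It stood at 36.3, 33.2 and 28.2 CPM in pre-leukemic libraries 1 to 3. In the stably expanded libraries it stood at 139, 72.4 and 107 CPM. In the de novo expanded libraries it stood at 8.51, 16.1 and 89.5 CPM. The pre-leukemic libraries lay close together, every stably expanded library lay above them, and the de novo expanded libraries fell on both sides, 1 and 2 below every pre-leukemic library and 3 within the range of clone 34BC-D.

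Between stably expanded and pre-leukemic cells, Cebpe rose 3.17-fold (95% confidence interval 2.29 to 4.38). Its normalized count, read counts divided by a size factor for library depth, was 1448 ± 471 (SD, n = 3) against 442 ± 58.2 (n = 3), which gave a log2 fold change of 1.66 (SE 0.21). By limma with Benjamini-Hochberg adjustment over 13968 genes its adjusted p was 0.00346, and by p it ranked 32. A call required 2-fold or more together with an adjusted p under 0.05, and 2.75% of the genes tested met this in the comparison (1.20% of the genes higher and 1.55% lower in stably expanded cells). The groups did not overlap for Cebpe, nor for 30.7% of all genes (16.1% higher). Cebpe was the single member of 6 called. Leaving out each library in turn kept the call at a log2 fold change between 1.44 and 1.93. With all 9 libraries in 1 fit, where the spread among the de novo expanded libraries enters the error, the limma adjusted p was 0.23 and the call was lost. Over the other settings the adjusted p fell as low as 2.40e-13, by DESeq2.

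Between de novo expanded and pre-leukemic cells, the mean log2 level of Cebpe differed by -0.47 (95% confidence interval -2.24 to 1.31, limma adjusted p = 0.853, n = 3 against 3). In this comparison 0 of 14195 genes were called by limma (0%), while 11.3% had an unadjusted p under 0.05 and DESeq2 called 62. Without de novo expanded library 3 the log2 difference was -1.45 and Cebpe was called (limma adjusted p = 0.0126). Without library 1 it was 0.25, in the opposite direction, and was not called. With all libraries it was 0.23 by edgeR and by DESeq2, which compare mean counts.

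Between the leukemic groups, Cebpe was 4.45-fold higher in stably expanded cells (1.24 to 15.9), with an unadjusted limma p of 0.0275 that did not pass adjustment (adjusted p = 0.891). The call rule was met by 0.00727% of 13758 genes here. With de novo expanded library 3 left out, the difference grew to 3.14 on the log2 scale and Cebpe was called (limma adjusted p = 0.00126). The 3 comparisons share libraries pairwise and are not independent of each other.

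**Figure D1:**
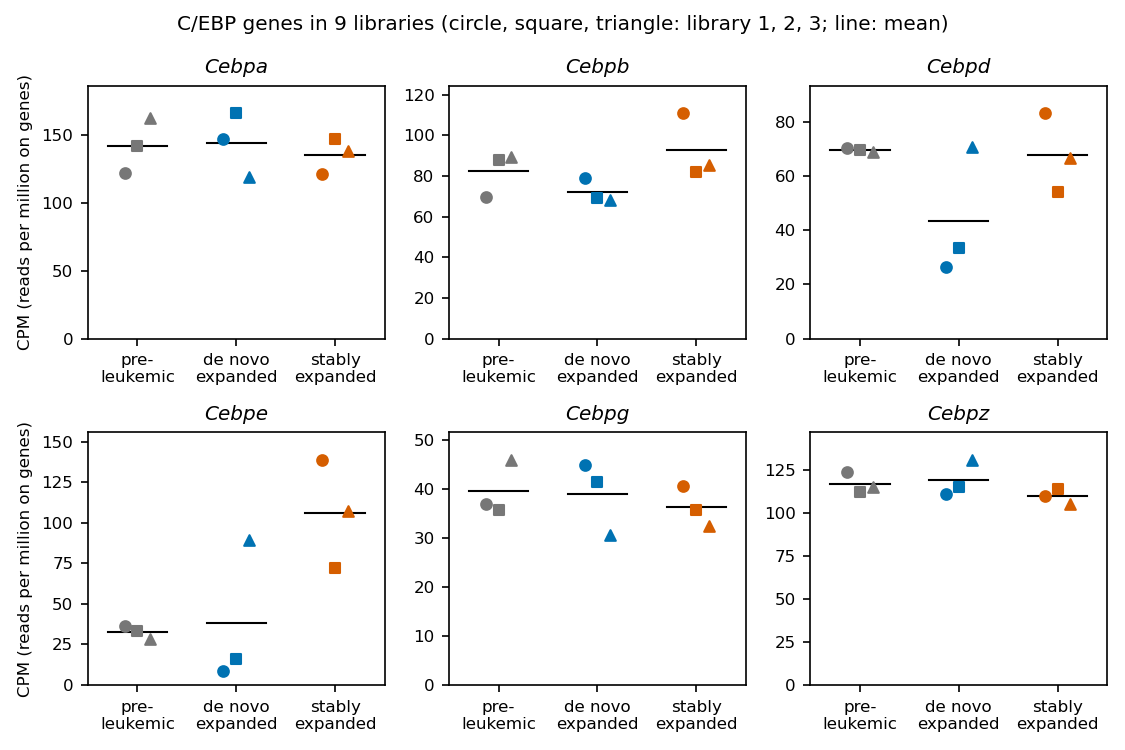
Level of the 6 members in CPM (vertical axis, from 0) in the 3 groups, with a point per library (circle, square and triangle for libraries 1, 2 and 3) and a line at the group mean. Cebpe lies between 72.4 and 139 CPM in the stably expanded libraries and between 28.2 and 36.3 CPM in the pre-leukemic ones, and de novo expanded library 3 lies apart from libraries 1 and 2 in Cebpe and Cebpd.

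Cebpa, on chr7:35119293-35121928, stayed within a narrow range. Its level was 122, 142 and 162 CPM in the pre-leukemic, 147, 166 and 119 CPM in the de novo expanded and 121, 147 and 138 CPM in the stably expanded libraries. All 3 groups overlapped. The log2 difference was 0.03 (-0.32 to 0.38, limma adjusted p = 0.955) for de novo expanded and -0.06 (-0.32 to 0.20, adjusted p = 0.792) for stably expanded against pre-leukemic cells, and -0.08 (-0.40 to 0.25, adjusted p = 0.956) between the leukemic groups. Over the 3 comparisons the confidence intervals ran from 0.758-fold to 1.31-fold.

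The ratio of Cebpe to Cebpa, taken within each library as the log2 ratio of normalized counts, was -1.75, -2.09 and -2.52 in pre-leukemic and 0.19, -1.02 and -0.37 in stably expanded libraries. The groups did not overlap, with a mean difference of 1.73, and the two-sided exact permutation p was 0.1, the smallest that 3 against 3 libraries allow. In de novo expanded libraries the log2 ratio was -4.10, -3.36 and -0.41, with an exact permutation p of 0.8 against pre-leukemic and 0.2 against stably expanded cells. The mean difference of stably from de novo expanded cells was 2.23, and 3.33 without de novo expanded library 3, where 0.2 is the smallest p that 3 against 2 libraries allow. Library 3 of this group was thus again within the range of the stably expanded libraries.

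Cebpb, on chr2:167688915-167690418, was at 69.7, 87.8 and 89.2 CPM in the pre-leukemic libraries. It was at 78.8, 69.2 and 68.2 CPM in the de novo expanded and at 111, 82.0 and 85.3 CPM in the stably expanded libraries. The leukemic groups did not overlap, which held for 9.61% of the genes tested (4.66% with stably expanded cells higher), and both overlapped the pre-leukemic group. Between them the log2 fold change was 0.36 (0.01 to 0.71) with an unadjusted limma p of 0.0442, a level reached by 4.83% of genes, and an adjusted p of 0.891. Against pre-leukemic cells the log2 difference was -0.17 (-0.47 to 0.13, limma adjusted p = 0.643) for de novo and 0.17 (-0.14 to 0.49, adjusted p = 0.479) for stably expanded cells. The log2 ratio of Cebpa to Cebpb was between 0.69 and 0.86 in pre-leukemic libraries, 0.81 and 1.26 in the de novo and 0.13 and 0.84 in the stably expanded ones, with exact permutation p-values of 0.3, 0.5 and 0.2 for the 3 comparisons in the order used above.

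Cebpd, on chr16:15887286-15891031, lay at 70.4, 69.6 and 69.0 CPM in the pre-leukemic libraries. The de novo expanded libraries had 26.5, 33.4 and 70.6 CPM and the stably expanded ones 83.2, 53.9 and 66.6 CPM. Libraries 1 and 2 of the de novo expanded group were below all other libraries, and library 3 was level with the pre-leukemic ones. The log2 difference of de novo expanded from pre-leukemic cells was -0.80 (-1.58 to -0.01), with an unadjusted limma p of 0.0468 and an adjusted p of 0.437. Without library 3 it was -1.22 and was called (limma adjusted p = 0.00136), and without library 1 it was -0.50 and was not called. Stably expanded cells differed from pre-leukemic cells by -0.06 (-0.39 to 0.28, adjusted p = 0.858) and from de novo expanded cells by 0.76 (-0.09 to 1.61, adjusted p = 0.891). The latter was 1.18 and called without library 3 (limma adjusted p = 0.0106), and 0.46 and not called without library 1.

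Cebpg, on the minus strand of chr7:35046422-35056573 and 62.7 kb from Cebpa, ranged from 30.6 to 46.1 CPM over the 9 libraries. Cebpz, on the minus strand of chr17:78919006-78937066, ranged from 105 to 131 CPM. For Cebpg the log2 differences were -0.02, -0.12 and -0.08 in the 3 comparisons (limma adjusted p = 0.986, 0.646 and 0.96). For Cebpz they were 0.04, -0.09 and -0.11 (limma adjusted p = 0.92, 0.561 and 0.907). The groups overlapped in both genes in every comparison. Whether reads were counted by strand is not given in the sources used here, and Cebpa, Cebpb, Cebpd, Cebpg and Cebpz overlap other annotated genes on their locus, such as Cebpzos opposite Cebpz with 63 to 142 reads per library, while Cebpe overlaps none.

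**Figure D2:**
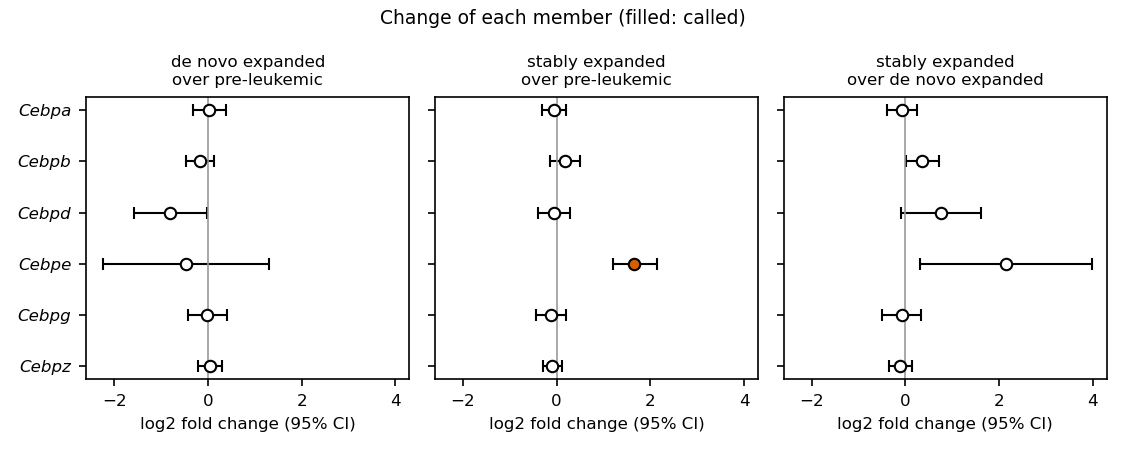
Log2 fold change (horizontal axis) of each member in the 3 comparisons, on the log2(normalized count + 1) scale, with the 95% confidence interval from limma as the bar and the called gene filled. Cebpe in stably expanded over pre-leukemic cells, at 1.66, is the filled point, and its intervals are wide in both comparisons that involve de novo expanded cells.

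Across the 9 libraries together, the standard deviation of log2 CPM was 1.29 for Cebpe, and 99.3% of the 13402 genes tested in all 3 comparisons had a smaller one. It was 0.55 for Cebpd (89.3%), 0.22 for Cebpb (38.7%), 0.20 for Cebpg (30.2%), 0.18 for Cebpa (23.8%) and 0.10 for Cebpz (2.90%). The family thus ran from a gene more variable than nearly all others to a gene among the steadiest. Without de novo expanded library 3 the values were 1.36 for Cebpe, 0.59 for Cebpd and 0.07 for Cebpz.

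Levels of different genes were compared per length of their exons, as RPKM (CPM per kilobase). In pre-leukemic cells Cebpb at 54.7 ± 7.23 (SD, n = 3) and Cebpa at 53.9 ± 7.59 stood highest and did not differ beyond their spread. Cebpe at 26.2 ± 3.27 and Cebpz at 25.2 ± 1.33 followed, again within their spread of each other, then Cebpd at 18.6 ± 0.193 and Cebpg at 7.05 ± 1.00. In stably expanded cells Cebpe led at 85.6 ± 26.8, ahead of Cebpb at 61.7 ± 10.6, Cebpa at 51.4 ± 4.90, Cebpz at 23.5 ± 0.953, Cebpd at 18.1 ± 3.92 and Cebpg at 6.46 ± 0.733. Cebpe was the highest member in each of the 3 stably expanded libraries, although in library 2 its 58.4 RPKM was close to the 55.7 of Cebpa and the 54.5 of Cebpb. In de novo expanded cells Cebpa at 54.7 ± 8.95 and Cebpb at 47.9 ± 3.89 led on average, Cebpe was at 30.7 ± 36.1, Cebpz at 25.6 ± 2.27, Cebpd at 11.6 ± 6.34 and Cebpg at 6.94 ± 1.33, but in library 3 Cebpe led at 72.2.

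Summed over the 5 bZIP members, the family stood at 161 ± 11.8 RPKM in pre-leukemic, 152 ± 30.7 in de novo and 223 ± 36.2 in stably expanded cells (SD, n = 3 each). Cebpe made up 13.4% to 19.8% of this sum in pre-leukemic libraries and 30.8% to 42.9% in stably expanded ones. In the de novo expanded libraries its share was 5.27%, 9.41% and 38.6%. Cebpa made up 31.5% to 36.2% in pre-leukemic and 17.6% to 29.4% in stably expanded libraries, where its own level differed little. These shares are a description of RNA and carry no test.

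**Figure D3:**
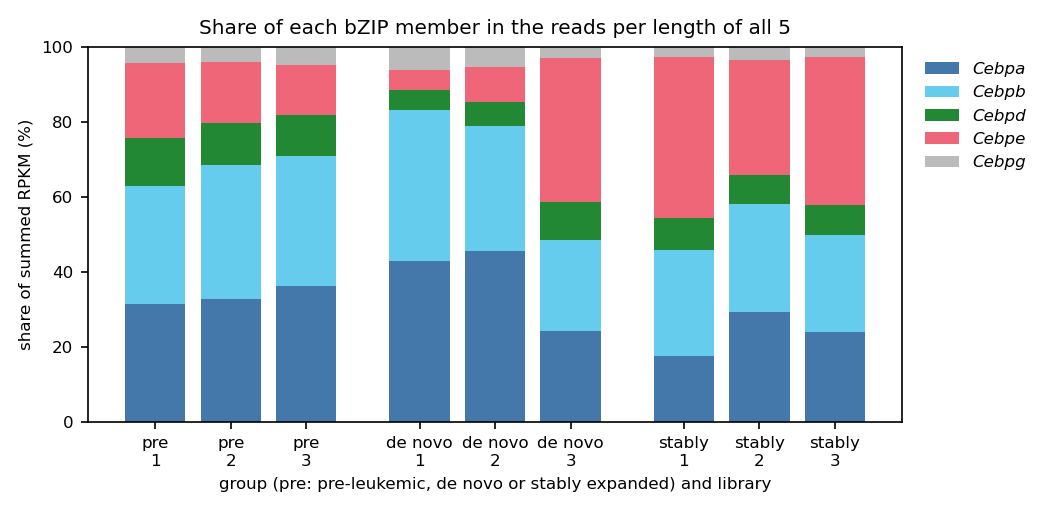
Share of the summed RPKM of the 5 bZIP members (vertical axis, percent) taken by each gene in each library, grouped as pre-leukemic, de novo expanded and stably expanded. The Cebpe share reaches 30.8% or more in the 3 stably expanded libraries and in de novo expanded library 3, and stays at 19.8% or less in the other 5.

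Genes of a like pattern were ranked by Pearson's r of log2(CPM + 1) over the 9 libraries among the same 13402 genes. These values describe the libraries, which share mice and clones, and carry no test. Nearest to Cebpe were Gfi1, encoding a transcriptional repressor needed for neutrophil differentiation, Sp140, a nuclear body protein, and Cd63, a tetraspanin of azurophilic granules, each with r = 0.99. Gfi1 read 141 to 166 CPM in pre-leukemic, 73.6, 93.6 and 311 CPM in de novo and 231 to 356 CPM in stably expanded libraries, so that it shared the split of the de novo expanded group. Nearest to Cebpd were Rin3 (r = 0.98), Spen (0.97) and Cracr2a (0.97). Nearest to Cebpa were Haao (0.96), Necap2 (0.95) and Ece1 (0.93), and nearest to Cebpb were Atg101 (0.91), Rpl19-ps6 (0.90) and Cenpj (0.88). Cebpg was nearest to Slc7a6 (0.96), Ubfd1 (0.94) and Hspbp1 (0.94), and Cebpz to Osbpl3 (0.94), 4833412K13Rik (0.93) and Zfp507 (0.93). Among the members themselves, Cebpd and Cebpe had the highest r, 0.80 (Spearman's rho 0.68), and Cebpb with Cebpz (-0.65, rho -0.58) and Cebpe with Cebpg (-0.65, rho -0.63) the lowest, while the lowest rho were those of Cebpa with Cebpd (-0.82, r -0.58) and with Cebpe (-0.80, r -0.62). Leaving out de novo expanded library 3 gave 0.79 for Cebpd with Cebpe, -0.56 for Cebpb with Cebpz and -0.60 for Cebpe with Cebpg, kept the 3 genes nearest to Cebpe at 0.99, and took Cebpz with Osbpl3 and Zfp507 to 0.87 and 0.85.

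Of the genes within 100 kb of a member that could be tested, 0 were called in either comparison with de novo expanded cells. In stably expanded against pre-leukemic cells 1 of 21 was called, where 2.75% of all genes tested were. It was Slc7a8, an amino acid transporter gene on chr14:54722209-54781946, which lies on the minus strand with its end 10034 bases from Cebpe. Slc7a8 had 41, 16 and 30 reads in pre-leukemic, 16, 39 and 69 in de novo and 128, 141 and 98 in stably expanded libraries. The stably expanded libraries lay above all others, with a log2 fold change of 2.22 over pre-leukemic cells (limma adjusted p = 0.00877), a call lost with all 9 libraries in 1 fit (adjusted p = 0.0791). On the other side of Cebpe, Acin1, Psmb5, 1700123O20Rik and Cdh24 had log2 differences of 0.18, 0.75, 0.65 and 0.13 in the same comparison and were not called.

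Genes known to act downstream of the late granulocyte factor C/EBPε were the list with the most genes called. Of 20 such genes 18 could be tested between stably expanded and pre-leukemic cells, and 17 had a higher mean in stably expanded cells. Of the 18 tested, 10 were called higher and 0 lower, where 1.20% and 1.55% of all genes were. The median log2 fold change was 2.13 against 0.0042 over all genes tested. The lists were chosen with earlier results of these data known, so such counts are no independent test. With all 9 libraries in 1 fit, 0 genes of this or any other list were called by limma in any comparison, and the 4 genes below were at adjusted p = 0.0791, 0.19, 0.117 and 0.0817. Lcn2, encoding the siderophore-binding protein lipocalin, was at 1699, 940 and 579 normalized counts against 216, 167 and 128 (log2 fold change 2.54, limma adjusted p = 0.00357). Ltb4r1, a leukotriene receptor gene, was at 720, 530 and 432 against 186, 203 and 236 (2.63-fold, adjusted p = 0.00455). Fcnb, encoding a ficolin of myeloid cells, was at 1678, 640 and 355 against 78.1, 83.7 and 111 (log2 fold change 3.00, adjusted p = 0.00526). Ngp, the neutrophilic granule protein gene, was at 35685, 14296 and 4956 against 1398, 1756 and 1517 (log2 fold change 3.14, adjusted p = 0.00794). In each of these 4 genes every stably expanded library lay above every pre-leukemic one. Library 1 was the highest of the stably expanded group and library 3 the lowest.

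The promoters of these 4 genes are shown because they were the called genes of smallest p on the C/EBPε list. Binding of C/EBP proteins to them was not tested. Each sequence gives the 250 bases before the RefSeq transcription start (GRCm38.p6) on the gene's strand, with any match to TTGCNNAA, a core of the C/EBP recognition sequence, on either strand in capitals. The windows are chr2:32387740-32387989 (minus) for Lcn2, chr14:55765712-55765961 (plus) for Ltb4r1, chr2:28084879-28085128 (minus) for Fcnb and chr9:110419558-110419807 (plus) for Ngp.
Lcn2: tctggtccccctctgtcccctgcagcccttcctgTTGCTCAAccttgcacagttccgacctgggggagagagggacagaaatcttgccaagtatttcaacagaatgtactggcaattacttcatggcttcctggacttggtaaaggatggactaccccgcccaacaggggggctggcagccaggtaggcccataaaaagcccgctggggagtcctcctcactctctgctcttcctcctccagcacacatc
Ltb4r1: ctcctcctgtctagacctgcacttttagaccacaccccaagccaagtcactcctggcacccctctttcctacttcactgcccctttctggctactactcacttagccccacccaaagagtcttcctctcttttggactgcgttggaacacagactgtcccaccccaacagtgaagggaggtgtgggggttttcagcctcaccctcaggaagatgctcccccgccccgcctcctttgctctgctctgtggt
Fcnb: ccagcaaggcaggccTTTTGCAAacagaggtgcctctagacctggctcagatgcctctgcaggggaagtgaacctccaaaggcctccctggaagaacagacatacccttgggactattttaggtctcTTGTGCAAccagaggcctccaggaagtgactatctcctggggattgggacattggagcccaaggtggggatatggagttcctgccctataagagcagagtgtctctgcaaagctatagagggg
Ngp: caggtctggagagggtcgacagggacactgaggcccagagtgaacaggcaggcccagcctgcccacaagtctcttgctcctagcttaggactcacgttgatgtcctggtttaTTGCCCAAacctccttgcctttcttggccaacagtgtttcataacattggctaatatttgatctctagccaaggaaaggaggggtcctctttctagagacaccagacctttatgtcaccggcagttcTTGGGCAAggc
Lcn2 held 1 match, 216 bases before the start, Fcnb held 2, 235 and 123 bases before it, Ngp held 2, 138 and 11 bases before it, and Ltb4r1 held 0. Of the 10 genes called on this list 4 held a match, the fourth being Ltf, and 0 of the 3 called on the list of C/EBPα targets below, while 9.56% of 32851 RefSeq promoter windows of the same length did. A match to these letters is a description of the window and not a binding site.

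The de novo expanded cells gave no call on this list with all libraries by limma. Against pre-leukemic cells 0 of 18 genes were called by limma, with 3 higher at an unadjusted p under 0.05 (5.99% of all genes). The median log2 fold change was 0.28, against 0.01 over all genes tested. Against de novo expanded cells the stably expanded cells had a higher mean in 17 of 17 genes tested, with a median log2 fold change of 1.88, and 0 were called by limma, with 10 at an unadjusted p under 0.05, a level at which 2.72% of all genes were higher. Without de novo expanded library 3 the median over pre-leukemic cells was -0.02 and 1 gene, Chil3, was called higher. In stably over de novo expanded cells 9 genes, Lcn2, Fcnb, Ngp and Ltb4r1 among them, were then called higher, with a median of 2.51. Over all genes 214 and 508 were called in these fits. Summed over its 20 genes the list stood at 897 to 936 CPM in pre-leukemic libraries, at 815, 943 and 1620 CPM in de novo expanded and at 6312, 3179 and 1516 CPM in stably expanded libraries. De novo expanded library 3 was thus above stably expanded library 3 in this sum, with a Cebpe level of 89.5 CPM against 107. In both comparisons with de novo expanded cells edgeR called 0 genes of any of the 8 lists used here, while DESeq2 called 1 late granulocyte gene and 2 bZIP genes over pre-leukemic cells and 1 partner gene between the leukemic groups.

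Targets of C/EBPα in early granulocytes, among them primary granule and growth factor receptor genes, followed the libraries in a different order. Between stably expanded and pre-leukemic cells 3 of 17 tested genes were called higher and 0 lower, where 1.20% and 1.55% of all genes were. The median log2 fold change was 0.40, with 11 genes higher and 6 lower on average. Among the latter, Il6ra fell by 0.92 on the log2 scale (limma adjusted p = 0.00455), short of the 2-fold limit. Cd63 was at 2649, 1545 and 1822 normalized counts against 663, 619 and 539 (log2 fold change 1.69, limma adjusted p = 0.00247), Ms4a3, which marks granulocyte-monocyte progenitors, rose by 1.26 (adjusted p = 0.00346) and Nkg7 by 1.38 (adjusted p = 0.0341), although the call of Nkg7 held without only 1 of the 6 libraries, stably expanded library 2. With all 9 libraries in 1 fit the 3 calls were lost (limma adjusted p = 0.27, 0.192 and 0.538). In the comparisons with de novo expanded cells 0 were called by limma. At an unadjusted p under 0.05, 2 were lower over pre-leukemic cells (5.26% of all genes) and 2 lower in de novo than in stably expanded cells (2.72%). The medians were -0.34 over pre-leukemic cells and 0.37 for stably over de novo expanded cells. Without de novo expanded library 3, 5 genes (Cd63, Csf3r, Elane, Mpo and Nkg7) were called lower over pre-leukemic cells. In stably over de novo expanded cells 8, the same 5 with Ms4a3, Prtn3 and Fcgr3, were then called higher. The medians were -0.49 and 0.64, and over all genes 214 and 508 were called in these fits. The sum over the 18 genes was 11205 to 12599 CPM in pre-leukemic and 13657 to 16273 CPM in stably expanded libraries, and 4808, 6629 and 23938 CPM in the de novo expanded ones. The last library was above and the first 2 were below all other libraries, while Cebpa was at 119, 147 and 166 CPM in libraries 3, 1 and 2 of this group.

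**Figure D4:**
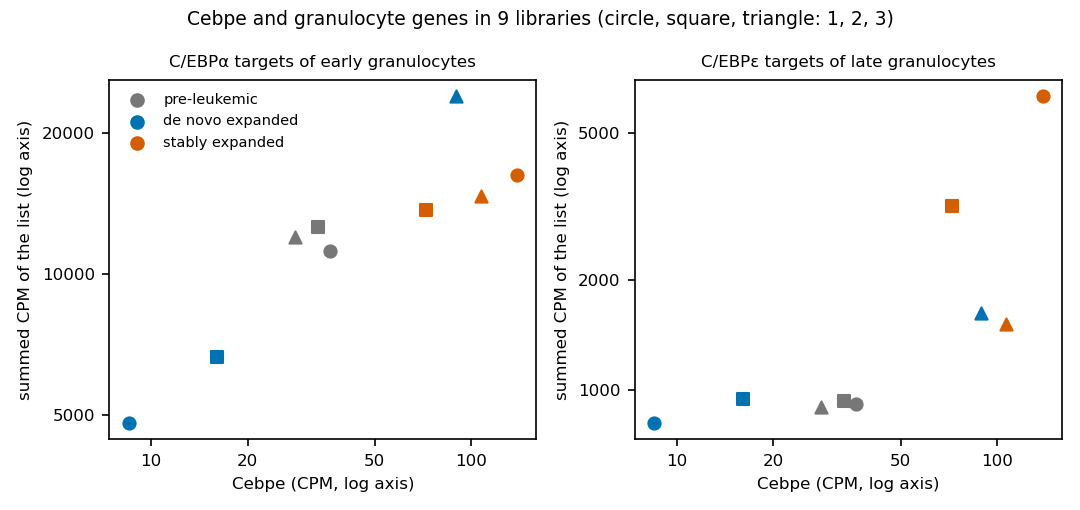
Summed CPM of 18 genes known as C/EBPα targets (left) and 20 known as C/EBPε targets (right) against the level of Cebpe in CPM, with both axes on a log scale and a point per library. De novo expanded libraries 1 and 2 lie lowest and library 3 highest in the left panel, and stably expanded libraries 1 and 2 lie highest in the right panel, at 6312 and 3179 CPM.

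Inflammatory genes known as targets of C/EBPβ and C/EBPδ had lower means in the leukemic cells in most cases. Of 19 genes 11 were tested in stably expanded against pre-leukemic cells, and the median log2 fold change was -1.38. Of the 11 tested, 1 was called higher and 4 lower, where 1.20% and 1.55% of all genes were. Il1rn, the interleukin-1 receptor antagonist gene, rose by 1.69 on the log2 scale (limma adjusted p = 0.00877). Among the genes that fell, the chemokine gene Cxcl2 was at 2.68, 9.11 and 2.66 normalized counts against 30.2, 55.2 and 66.6 (log2 fold change -3.26, adjusted p = 0.0102), and the growth factor gene Csf1 was at 60.8, 142 and 95.6 against 271, 256 and 372 (-1.64, adjusted p = 0.0103). The chemokine genes Ccl4 and Ccl3 fell by 1.38 and 1.46 on the log2 scale (limma adjusted p = 0.0452 and 0.0466), and both calls were lost without any 1 of the 3 pre-leukemic libraries or stably expanded library 1, that of Ccl4 also without stably expanded library 2. The call of Cxcl2 was lost without pre-leukemic library 2, and all 5 were lost with 9 libraries in 1 fit (limma adjusted p = 0.0791 to 0.157). In de novo expanded over pre-leukemic cells the median was -0.66 with 0 of 11 called, 5 of them lower at an unadjusted p under 0.05 (5.26% of all genes). Between the leukemic groups it was -0.33 with 0 of 8 called, 2 of them higher (2.72% of all genes) and 0 lower at that level. When de novo expanded library 3 was left out, Il1rn was called higher and Csf1 lower between the leukemic groups, and the medians were -0.36 over pre-leukemic cells and -0.55. Il6, Il10, Nos2 and Ptx3 had at most 3 reads in every library. Summed over its 19 genes the list stood at 351 to 420 CPM in pre-leukemic, 305 to 339 CPM in de novo and 318 to 453 CPM in stably expanded libraries. Hp rose by 0.74 on the log2 scale in stably expanded over pre-leukemic cells (limma adjusted p = 0.0408), short of 2-fold. In that comparison 2 of 11 genes were higher and 9 lower on average.

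Among 10 transcription factors that act with C/EBPs on myeloid DNA, Ets1 was called higher (log2 fold change 1.39, limma adjusted p = 0.0126) and Irf8, a factor of the monocyte and dendritic cell lineages, lower (-1.35, adjusted p = 0.0126) in stably expanded over pre-leukemic cells. Of all genes 1.20% were called higher and 1.55% lower there. Irf8 was at 1669, 3440 and 1980 normalized counts against 4224, 5918 and 7514, and its call was lost without pre-leukemic library 2 (adjusted p = 0.0571). Both calls were lost with all 9 libraries in 1 fit (limma adjusted p = 0.236 for Ets1 and 0.279 for Irf8). Runx1 at -0.70 (adjusted p = 0.00583), Gfi1 at 0.85 (adjusted p = 0.0102) and Fli1 at 0.49 (adjusted p = 0.026) also passed the adjusted p but changed by less than 2-fold. Of all genes 7.95% passed the adjusted p. The list's medians were 0.21 in this comparison, -0.26 in de novo expanded over pre-leukemic cells and 0.29 between the leukemic groups. Klf5 at -0.97 and Runx1 at -0.50 had the smallest p in de novo expanded over pre-leukemic cells. Between the leukemic groups Klf5 at 2.12 and Ets1 at 1.70 had it. In both, 0 of 10 were called by limma. At an unadjusted p under 0.05, 1 of 10 was lower in the former and 2 of 10 were higher in the latter, where 5.26% and 2.72% of all genes were. In fits without de novo expanded library 3, Ets1 was called lower over pre-leukemic cells, and Ets1, Gfi1 and Klf5 were called higher and Irf8 lower in stably over de novo expanded cells, with medians of -0.24 and 0.47.

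Of the bZIP proteins that pair with C/EBPs, 1 of 9 tested genes was called in stably expanded over pre-leukemic cells, where 2.75% of all genes were. Fos, a subunit of AP-1, fell by 1.49 on the log2 scale (limma adjusted p = 0.0354), from 7221, 6474 and 8714 to 1183, 4156 and 3769 normalized counts, a call that was lost without any 1 of the 3 pre-leukemic libraries or stably expanded library 1, by DESeq2 and with all 9 libraries in 1 fit (limma adjusted p = 0.133). In de novo expanded over pre-leukemic cells Fos was at -1.34 and its partner Jun at -0.67 (limma adjusted p = 0.33 for both), without overlap between groups, as in 19.1% of the genes tested (8.50% lower). Between the leukemic groups Hlf at -1.28 and Batf3 at -2.18 had the smallest p. Batf3 was at 2.69, 0.91 and 0 normalized counts in stably expanded and 51.6, 3.46 and 1.79 in de novo expanded libraries. Its value thus rests on de novo expanded library 1. In either of these comparisons 0 of 10 were called by limma, with 4 and 0 at an unadjusted p under 0.05 (11.3% and 4.83% of all genes). Once de novo expanded library 3 was left out, Fos was called lower and Hlf higher over pre-leukemic cells, and Hlf lower in stably over de novo expanded cells. The list's medians were -0.44, -0.21 and -0.12 in the order of this paragraph, the last of which became -0.34 and the second -0.09 without de novo expanded library 3.

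The negative regulators of C/EBPα included Id2, an inhibitor of DNA binding, which was called higher in stably expanded over pre-leukemic cells at 265, 244 and 151 against 80.1, 90.1 and 81.2 normalized counts (log2 fold change 1.34, limma adjusted p = 0.0114). Id2 was the single gene called of 9 tested (2.75% of all genes were), with a list median of 0.09. Its call was lost with all 9 libraries in 1 fit (limma adjusted p = 0.133). At an unadjusted p under 0.05, 2 of the 9 were higher and 2 lower, where 25.4% of all genes passed in either direction. The lower ones were Trib1 at -1.06 and Cop1 at -0.27 (limma adjusted p = 0.06 and 0.192). In de novo expanded over pre-leukemic cells the median was -0.02, with Cop1 at -0.30 and Id1 at -0.70 of smallest p. Between the leukemic groups it was 0.06, with Id2 at 1.38 and Id1 at 1.08. In both, 0 were called by limma, with 0 and 2 at an unadjusted p under 0.05 (11.3% and 4.83% of all genes). Without de novo expanded library 3, Id2 was called higher between the leukemic groups, and the medians were 0.05 and 0.03.

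Neither the targets of ATF4 and C/EBPγ in amino acid stress nor the NOC and ribosome maturation genes had a called member in any comparison by limma or edgeR, and DESeq2 called 1 stress gene in stably expanded over pre-leukemic cells. Phgdh was called lower by limma between the leukemic groups without de novo expanded library 3. Of the stress genes 3 of 14 were higher at an unadjusted p under 0.05 in stably expanded and 2 of 13 in de novo expanded over pre-leukemic cells (13.2% and 5.99% of all genes, 25.4% in either direction for the former), with medians of 0.26 and 0.31, and 0 of 13 between the leukemic groups, with a median of -0.15. Without de novo expanded library 3 the last median was -0.29 and that over pre-leukemic cells 0.53. Aldh18a1 at 0.38 and Asns at 1.17, Psat1 at 0.55 and Aldh18a1 at 0.31, and Phgdh at -1.24 and Psat1 at -0.35 had the smallest p in these 3 comparisons. The ribosome maturation genes were higher on average in de novo expanded over pre-leukemic cells in 20 of 20 genes, with a median of 0.29 and 7 at an unadjusted p under 0.05, led by Mybbp1a at 0.38 and Nop58 at 0.32. Their sum was 4814 and 4504 CPM in de novo expanded libraries 1 and 2 and 3547 CPM in library 3, within the 3211 to 3594 CPM of the pre-leukemic libraries, and the median without library 3 was 0.38. Their medians were 0.10 in stably expanded over pre-leukemic cells, with Pes1 at 0.32 and Ncl at 0.28, 2 of 20 being higher at that level, and -0.17 between the leukemic groups, with Fbl at -0.51 and Nop2 at -0.30, and a median of -0.26 without that library, 1 of 20 being lower, where 4.83% of all genes passed that level in either direction.

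Other markers also differed between libraries, with overlap between groups in part of them. Itgam, which encodes the sorted surface protein CD11b, was at 40.7 to 49.9 CPM in pre-leukemic, 27.8, 34.7 and 58.2 CPM in de novo expanded and 58.0 to 85.7 CPM in stably expanded libraries. The 8 macrophage genes summed to 87.5 to 185 CPM in pre-leukemic, 53.5 to 243 CPM in de novo expanded and 171 to 229 CPM in stably expanded libraries, carried by Adgre1 and Vcam1, while the other 6, C1qa, C1qb, C1qc, Mertk, Marco and Cd5l, reached at most 0.986 CPM in any library. The 7 B cell genes summed to 224 to 272, 75.2 to 224 and 85.7 to 107 CPM in the same order of groups. The 7 erythroid genes summed to 18.6 to 35, 2.29 to 14.8 and 2.31 to 24 CPM in that order. For the 7 T and NK cell genes the sums were 2.36 to 3.22, 0.836 to 2.25 and 0.522 to 2.12 CPM. The part of Itgam-expressing, macrophage, B, erythroid, T or NK cells in the result was not tested.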

How the data were processed

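RNA-Seq of 9 libraries in 3 groups of 3 was analysed. The members and gene lists were chosen with earlier results of these data known. Per the paper and labels, libraries were made from total RNA with a stranded SMARTer Pico kit, reads were trimmed with Trim Galore 0.6.4, aligned with STAR 2.6.1d to GRCm38.p6 with GENCODE M25 and counted with featureCounts 1.6.4. The authors deposited 3 tables of 55401 genes, 1 per pair of groups, with normalized counts, a signal that the authors obtained with DESeq2 by dividing read counts by size factors over 6 libraries, their mean and the gene length. The tables also hold the authors' fold changes, standard errors, statistics and p-values, which were not used.

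Dividing by the smallest step returned whole reads for at least 99.9917% of values (tolerance 0.05 reads), between 10379739 and 15551196 per library, from which CPM and RPKM were computed. Labels tie columns to groups, not to samples, and separate cultures are not named, so p-values measure the spread between these libraries. The main test was limma 3.58.1 with an empirical Bayes trend in R 4.3.3 on the log2 of the normalized count with a pseudocount of 1, two-sided, in genes averaging at least 10, with Benjamini-Hochberg adjustment over all genes tested. Ratios of members were compared by an exact permutation test in scipy 1.17.1. Fold changes understate those of low genes. The test was checked on simulated counts. Alternatives were pseudocounts of 0.1 and 5, no filter, a mean of at least 50, quantile normalization, median centring, edgeR 4.0.16, DESeq2 1.42.0, 1 fit of all 9 libraries, no fold limit and leaving out each library. The 9-library fit of the list genes, and the SD and r without de novo expanded library 3, were added after seeing the data. Text names all 6 members, per list the called genes (at most 4, by p) or else the 2 of smallest p, and the 3 genes nearest to each member. Further genes, among them Slc7a8, Gpx3, Ltf, Runx1, Gfi1, Fli1, Il6ra, Trib1, Cop1 and Hp, were named after their values were seen. A further genetic modification that all 9 libraries share is not reported here.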

Additional observations from a re-analysis of the deposited data

Results flagged for a closer look

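Cebpb lay on opposite sides of the pre-leukemic mean in the leukemic groups. The 3 de novo expanded libraries were below it and the 3 stably expanded libraries above it on the log2 CPM scale, library 2 of them at 82.0 CPM against a mean of 81.8 CPM, and the means of the leukemic groups differed by 0.35. On the scale of the normalized counts of the main test the pattern did not hold, since stably expanded library 2 was at 1090 against a pre-leukemic mean of 1108. In the comparison of the leukemic groups by limma the difference did not pass adjustment (adjusted p = 0.891), and the difference between both effects was not tested in another way.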

How the results depend on the processing

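Of 180 log2 fold changes of the members under other settings 176 kept direction and side of the threshold, 3 reversed and 1 lost its call. The reversed ones were in de novo expanded over pre-leukemic cells, for Cebpa under quantile normalization (-0.0022) and for Cebpe by edgeR (0.23) and DESeq2 (0.23). The lost call was Cebpe in stably expanded over pre-leukemic cells with 1 fit of all 9 libraries, where 0 members were called, and the 4 called targets named for C/EBPε were at adjusted p = 0.0791 to 0.19 (limma). Genes called in that comparison numbered 384, 1110 with no fold limit and 6 with 1 fit of all 9 libraries. In de novo expanded over pre-leukemic cells they numbered 0, 5 with no filter, 62 by DESeq2 and 5 in the 9-library fit, and between the leukemic groups 1, 2, 32 and 2. Leaving out 1 library at a time, 93 of 108 fold changes of members stayed, 4 became calls and 11 reversed. Members called ranged from 0 to 2, 1 to 1 and 0 to 2, and genes called from 0 to 214, 206 to 452 and 0 to 508, in de novo over pre-leukemic, stably over pre-leukemic and stably over de novo expanded cells, highest in the first and last without de novo expanded library 3. In de novo over pre-leukemic cells the ranges were -0.07 to 0.15 for Cebpa, -1.45 to 0.25 for Cebpe, -0.12 to 0.14 for Cebpg, -0.04 to 0.09 for Cebpz and -1.61 to 0.24 for the Cebpe to Cebpa ratio. In stably over pre-leukemic cells they were -0.16 to 0.04 for Cebpa and -0.22 to 0.12 for Cebpd, and between the leukemic groups -0.20 to 0.03 for Cebpa and -0.24 to 0.02 for Cebpg. The cause of these changes was not tested. No paired analysis was possible because the columns carry no replicate, clone or mouse number that ties a library to a sample within its group.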
